A study of Mus musculus with 20 samples.

Results

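Transcript counts were read along the mouse autosomes in windows of 5 Mb. Each chromosome from 1 to 19 was divided from position 0 on GRCm38, and each gene was placed in the window of its start coordinate. Genes with at least 10 counts in at least 5 libraries were kept, and a window was kept where it held at least 5 such genes. This left 455 windows of the 492 that held any kept gene, with 12108 genes of the 39179 in the tables. A kept window held 5 to 125 genes, with a median of 21, and the 37 windows not kept held 87 genes.

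The libraries came from an immortalised line of kidney epithelial origin, from C57BL/6J mice, grown in DMEM with 10% serum and uridine, in 4 groups of 5 libraries. Fh1_fl_fl cells carry the floxed gene and are labelled wild type for Fh1, clone1 and clone19 are labelled as deleted for Fh1, and Rec cells are labelled as re-expressing wild-type Fh1. Fh1 encodes fumarate hydratase, the tricarboxylic acid cycle enzyme that makes malate from fumarate. Each deletion group is 1 clone, so a value of the genotype and a value of the clone cannot be told apart. The labels do not name the clone behind Rec, the part of Fh1 that was deleted, or whether the 5 libraries of a group were separate cultures. The p-values therefore measure the spread between these libraries only, which may be technical. All comparisons with Fh1_fl_fl use the same 5 control libraries.

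An expressed gene's transcript level follows its own promoter and enhancers, but also the number of copies of the chromosome segment it lies on. Cultured cell lines are known to gain and lose whole chromosomes and segments, and neighbouring genes can also share enhancers or a chromatin state. Mouse chromosomes have their centromere at one end, so an arm-wide shift in the mouse is a chromosome-wide one. A window median reads what the genes of a segment have in common and is little moved by 1 gene. The tables hold RNA counts only, and DNA copy number was not tested.

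Promoter sequences of genes from 3 windows that are described below show what lies upstream of their starts. They are the first 250 bases upstream on the gene's strand, from RefSeq on GRCm38.p6, and were chosen after the values were seen. Slc7a11 (cystine and glutamate exchanger, minus strand, chr3:50443614-50443863) and Sema3e (a secreted semaphorin, plus strand, chr5:14025026-14025275) come from the most raised windows, and Strap (an RNA-assembly protein, plus strand, chr6:137734832-137735081) from a raised window on chromosome 6. Capitals mark matches to the amino acid response core TGATGNAA on either strand.
Slc7a11: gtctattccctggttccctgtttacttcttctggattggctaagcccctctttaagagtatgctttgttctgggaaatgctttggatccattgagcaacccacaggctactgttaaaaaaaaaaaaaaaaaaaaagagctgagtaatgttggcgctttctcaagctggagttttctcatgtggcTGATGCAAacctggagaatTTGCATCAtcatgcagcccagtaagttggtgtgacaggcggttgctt
Sema3e: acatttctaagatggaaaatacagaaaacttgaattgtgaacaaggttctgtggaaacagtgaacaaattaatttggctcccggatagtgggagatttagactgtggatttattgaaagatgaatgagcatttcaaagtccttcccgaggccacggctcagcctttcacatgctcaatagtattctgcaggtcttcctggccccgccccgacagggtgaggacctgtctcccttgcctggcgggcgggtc
Strap: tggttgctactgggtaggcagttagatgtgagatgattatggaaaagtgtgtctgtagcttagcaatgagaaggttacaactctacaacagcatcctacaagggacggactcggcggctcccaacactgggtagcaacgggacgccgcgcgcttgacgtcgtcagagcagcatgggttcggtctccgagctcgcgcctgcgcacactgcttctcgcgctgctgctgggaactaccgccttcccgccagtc
The Slc7a11 sequence held 2 of these cores, 1 on each strand, and 2 CpG. Sema3e held 7 CpG and Strap held 19 CpG, with no such core. None of the 3 held the antioxidant response core TGACNNNGC or the hypoxia response core ACGTG. Of the 9372 kept genes with a RefSeq promoter, 14.2% held the antioxidant core, 25.2% the hypoxia core and 2.4% the amino acid core in the same 250 bases. Among the 500 such genes of chromosome 6 the shares were 14.2%, 23.4% and 2.2%, and among the 364 of chromosome 12 they were 11.3%, 23.9% and 2.2%. A match describes letters and not a bound site.

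Gene totals ran from 5988447 to 18972176 counts, so that 3 counts equal 0.158 to 0.501 CPM (counts scaled to the library's total over genes). The share of reads that aligned to more than one place was 40.29% in clone19 replicate 3 and 28.83 to 34.3% in the others. Without that library, 13% of windows passed in clone19 against Fh1_fl_fl, the same share as with it. Fh1 itself (minus strand, chr1:175600374-175625635) counted 91.1, 103, 104, 103 and 93 CPM in Fh1_fl_fl and 118, 109, 107, 107 and 106 in clone1. It counted 82.5, 90.3, 77.2, 91.1 and 74.2 CPM in clone19 and 63.2, 73.6, 79.7, 67.8 and 64.3 in Rec. Relative to Fh1_fl_fl it was lower in Rec (log2 -0.37, edgeR adjusted p = 4.29e-05) and higher in clone1 (0.29, edgeR adjusted p = 0.000598), and it was not called in clone19 (-0.12, edgeR adjusted p = 0.124). The gene count was thus not lower past the test in either line labelled as deleted, and not higher in the line labelled as re-expressing Fh1. Whether it covers the deleted part was not tested, and all group names and directions here rest on the labels as given. The 10 epithelial markers were all detected, and their summed level was 3980 to 4660 CPM in Fh1_fl_fl, 3970 to 4410 in Rec, 2160 to 2730 in clone1 and 2050 to 2440 in clone19. The 7 mesenchymal markers summed to 1770 to 2530, 1590 to 2370, 2080 to 3010 and 3310 to 5320 CPM in the same order. The 6 leukocyte markers summed to 44.7 to 52.3 CPM in Fh1_fl_fl, 18.3 to 24.8 in Rec, 12.3 to 16 in clone1 and 6.7 to 12.2 in clone19, and the 4 endothelial markers to 0.153 to 0.58, 0.617 to 0.968, 1.2 to 2.76 and 7.04 to 8.79. The 4 podocyte markers summed to 121 to 146 CPM in Fh1_fl_fl and to at least 151 in the other lines. None of the markers was at 0 in all libraries. All 10 epithelial and 7 mesenchymal markers passed the count filter, but only 1 of 6 leukocyte, 1 of 4 endothelial and 1 of 4 podocyte markers did. Sums of these last 3 lists therefore rest on few genes and do not describe a cell type. In bulk RNA, fewer cells of a type and less RNA per cell cannot be told apart, and the part of these markers in the window values was not tested.

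Window values were wide in all lines and widest in clone1. For each library the score of a window is the median, over its genes, of log2(CPM + 0.5) minus the gene's Fh1_fl_fl mean, less the same median over all kept autosomal genes. Differences between group means of this score are log2 values, and they understate the change of low genes. The subtraction matters because the median kept gene was itself at -0.17 in clone1, -0.13 in clone19 and -0.16 in Rec on library totals (-0.05, -0.05 and -0.03 after TMM, the trimmed mean scaling of edgeR). Across the 455 windows the differences had an SD of 0.40 in clone1, 0.30 in clone19 and 0.25 in Rec, against a median standard error of 0.044. The middle 90% of windows lay between -0.55 and 0.64 in clone1, between -0.37 and 0.46 in clone19 and between -0.36 and 0.44 in Rec.

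A window was called shifted where its difference exceeded a log2 bound of 0.25 (1.19-fold) by limma's treat at an adjusted p under 0.05. In clone1, 79 windows were higher (17.4%) and 56 lower (12.3%). In clone19, 36 were higher (7.91%) and 23 lower (5.05%), and in Rec 31 were higher (6.81%) and 20 lower (4.4%). Without the bound, limma at an adjusted p under 0.05 called 354, 302 and 296 windows. The direction of the calls rests on the subtracted median: on library totals alone the split became 41 higher and 112 lower in clone1, 17 and 62 in clone19, and 12 and 60 in Rec, and on TMM alone 66 and 74, 30 and 35, and 28 and 27. All directions of windows and chromosomes below are therefore relative to the median autosomal gene of the line. Directions of single genes are not: edgeR folds are on the TMM scale and CPM values on library totals.

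Neighbouring windows were alike, so that shifts came in stretches. Over 403 pairs of adjoining kept windows, Pearson's r was 0.48 in clone1, 0.32 in clone19 and 0.45 in Rec, as a description across windows that share libraries. By rank, Spearman's rho was 0.59, 0.47 and 0.47, so clone19 was not below Rec. A run was counted where at least 4 kept windows in a row differed by at least 0.25 on the same side, with no test of its own. Runs are thus chosen by their medians. A high share of a run's genes on its side follows largely from that choice and is a description only. There were 13 runs in clone1 with 101 windows, 7 in clone19 with 34 and 6 in Rec with 36. The chromosome a window lay on accounted for 33.4% of the variance of window differences in clone1, 17.7% in clone19 and 30.2% in Rec. Position along the chromosome had a Spearman rho of -0.05, 0.01 and -0.05 with the difference, the GC content of the window's transcripts -0.15, -0.13 and -0.17, and the number of genes -0.13, -0.12 and -0.14.

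**Figure D1:**
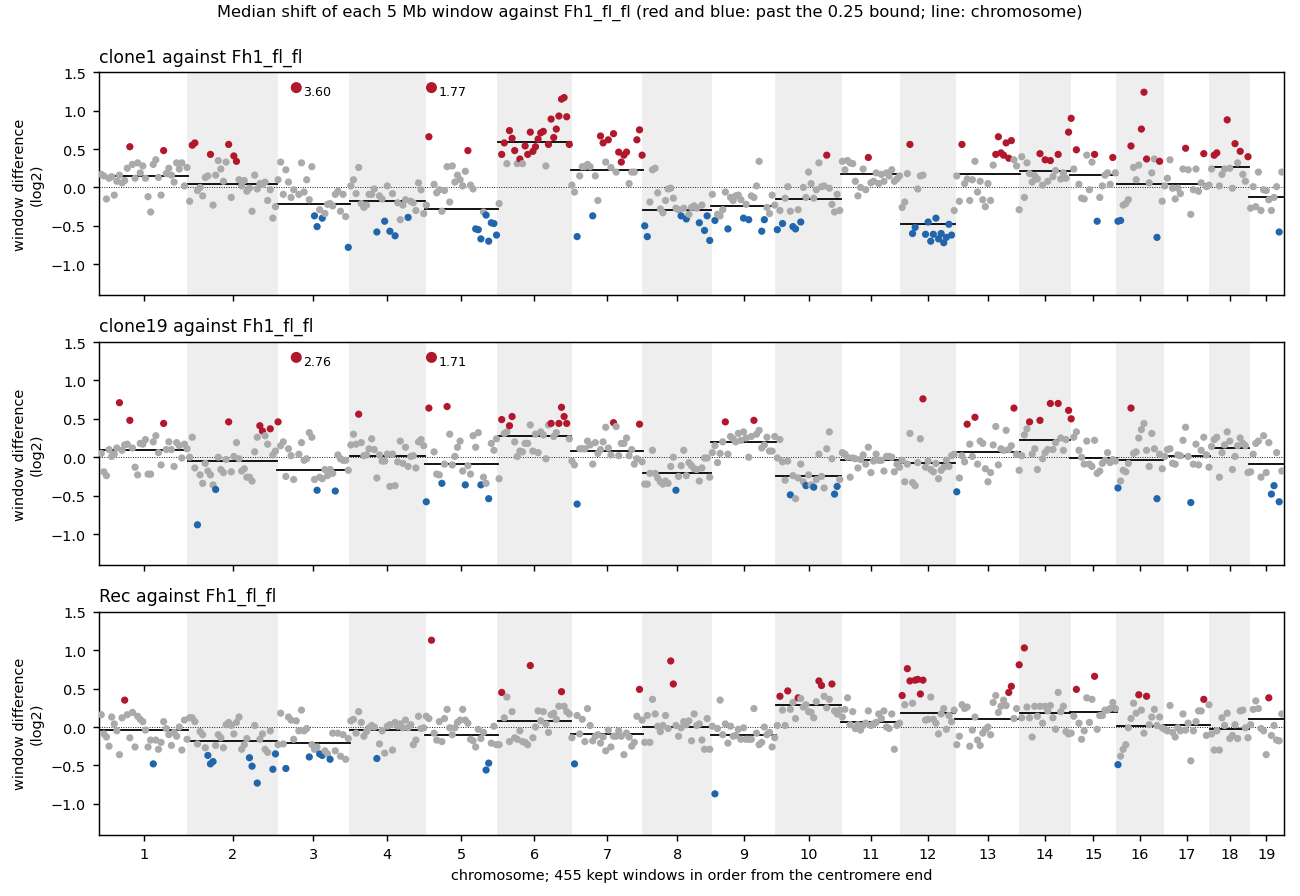
Each point is the log2 difference of 1 of 455 windows from Fh1_fl_fl, in order along chromosomes 1 to 19, with windows past the 0.25 bound in red (higher) and blue (lower) and the chromosome difference as a black line; points beyond the axis sit at its edge with their value. In clone1 all but the first chromosome 6 window lie above 0 and most distal chromosome 12 windows lie below it, while in Rec chromosome 10 and the first part of chromosome 12 lie above.

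Whole chromosomes stood apart from the control libraries in every line. The chromosome score is the same median over all kept genes of a chromosome, and a chromosome was called where the exact two-sided permutation test over 5 against 5 libraries passed an adjusted p of 0.05, over 114 tests, and the difference was at least 0.10. All called chromosomes had the smallest p that 5 against 5 allows, 0.00794 (adjusted 0.00994), since their groups did not overlap. In clone1, 8 of 19 chromosomes were higher (42.1%) and 8 lower (42.1%), leaving 2, 16 and 17. In clone19, 5 were higher (26.3%) and 3 lower (15.8%), and in Rec 5 were higher (26.3%) and 4 lower (21.1%). Without the subtracted median, on library totals, the split was 2 higher and 11 lower in clone1, 1 and 12 in clone19, and 1 and 11 in Rec. Chromosomes 7, 11, 13, 14 and 15 in clone1, 9 and 14 in clone19, and 12, 14 and 15 in Rec then lost their calls, and chromosome 1 in clone1 and clone19, 18 in clone19 and 13 in Rec turned to between -0.04 and -0.02. Chromosome 6 in clone1 and clone19, chromosome 18 in clone1 and chromosome 10 in Rec kept higher calls. Scores of the Fh1_fl_fl libraries, which set the reference, lay within -0.03 and 0.02 on all 19 chromosomes.

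**Figure D2:**
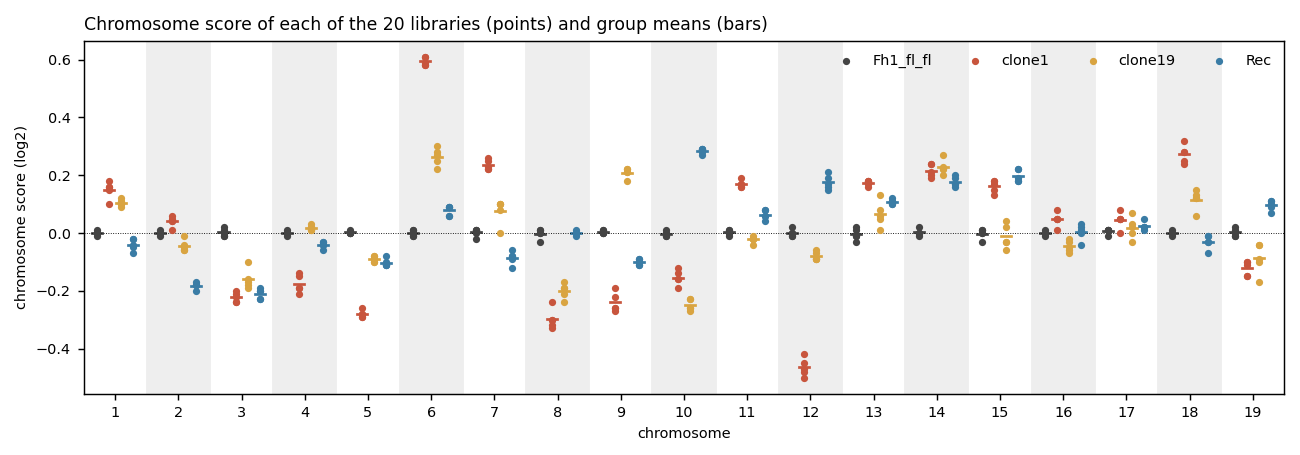
Chromosome scores (log2, vertical axis) of the 20 libraries, with 5 points and a bar for the mean in each group. The clone1 points at 0.58 to 0.61 on chromosome 6 and at -0.5 to -0.42 on chromosome 12 are the farthest from 0.

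Chromosome 6 was raised along nearly its whole length in clone1 and less in clone19. The clone1 libraries scored 0.61, 0.58, 0.58, 0.59 and 0.61, a difference of 0.59 (1.51-fold), and the clone19 libraries 0.25, 0.3, 0.28, 0.27 and 0.22, a difference of 0.27 (1.20-fold). The Rec libraries scored 0.09, 0.06, 0.06, 0.09 and 0.09, a difference of 0.08 that was not called. The 3 lines did not overlap each other or the controls. In clone1, 27 of 28 windows were above 0, 23 of them past the bound and none lower. Only the first window, from 0 to 5 Mb with 7 genes, was below, at -0.21. The 27 windows from 5 to 150 Mb formed 1 run with a median of 0.60 over 595 genes, of which 76% were above 0.

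By edgeR's quasi-likelihood test at an adjusted p under 0.05, 67% of the tested chromosome 6 genes were higher in clone1 and 17.4% lower, against 38% and 40.5% of all 12671 tested genes. In clone19 they were 52.8% and 23.3%, against 36.8% and 36.1%, and in Rec 40.5% and 33%, against 33.4% and 37.4%. The shift grew toward the far end in clone1: genes on the centromere side of the middle differed by 0.43 and those on the distal side by 0.74, while the windows from 130 to 135 Mb and from 135 to 140 Mb reached 1.15 and 1.17. In clone1 the 130 to 135 Mb window scored 1.19, 1.07, 1.2, 1.17 and 1.1, in clone19 0.63, 0.66, 0.64, 0.65 and 0.64, and in Rec 0.38, 0.52, 0.38, 0.49 and 0.47. It was called higher in all 3 lines, and clone1 libraries lay above clone19 libraries, which lay above Rec libraries.

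Genes of different kinds carried the chromosome 6 value. Emp1 (an epithelial membrane protein, chr6:135362545-135383173) counted 461, 508, 407, 438 and 424 CPM in Fh1_fl_fl and 1270, 1210, 1160, 1210 and 1440 in clone1. Strap, whose promoter is shown above, counted 255, 259, 264, 270 and 255 CPM in Fh1_fl_fl and 660, 590, 612, 579 and 615 in clone1, with 434 ± 42.9 (SD, n = 5) in clone19 and 471 ± 17.5 in Rec. Eps8, an actin-capping adaptor of the EGF receptor, had 171 ± 7.68 CPM in Fh1_fl_fl against 545 ± 27.4 in clone1, 344 ± 20.9 in clone19 and 144 ± 4.75 in Rec. These 3 neighbours rose in clone1 by 1.63 (SE 0.070), 1.37 (SE 0.060) and 1.81 (SE 0.050) on the log2 scale, with edgeR adjusted p of 1.48e-17, 2.01e-17 and 9.4e-22.

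Abundant genes elsewhere on the chromosome went both ways. Asns, asparagine synthetase, counted 185, 227, 183, 189 and 170 CPM in Fh1_fl_fl against 1070, 897, 899, 868 and 961 in clone1, 632, 618, 497, 616 and 603 in clone19, and 535, 544, 508, 511 and 562 in Rec. It lies at chr6:7675169-7693254, in the window from 5 to 10 Mb that was called higher in each line, at 0.43, 0.49 and 0.45. Tpi1, the glycolytic triosephosphate isomerase (chr6:124810586-124814296), had 659 ± 33.1 CPM in Fh1_fl_fl against 2610 ± 229 in clone1, 1500 ± 127 in clone19 and 638 ± 26.9 in Rec. Cct7, a subunit of the TRiC chaperonin, had 448 ± 14.2 CPM in Fh1_fl_fl against 885 ± 72.8 in clone1, 670 ± 39.9 in clone19 and 778 ± 36.8 in Rec. Akr1b3, aldose reductase (chr6:34302434-34317478), had 2650 ± 329 CPM in Fh1_fl_fl against 598 ± 50.5 in clone1, 420 ± 17.1 in clone19 and 833 ± 42.3 in Rec, and was lower in clone1 by edgeR (log2 -2.01, SE 0.077, adjusted p = 1.21e-18). Hnrnpa2b1, an RNA-binding protein of the same run, was also lower in clone1, at 878 CPM against 1420 (log2 -0.56, SE 0.071, edgeR adjusted p = 7.45e-08).

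In clone19 the chromosome 6 shift was uneven. A run from 5 to 30 Mb had 5 windows and a median of 0.45 over 59 genes, and a run from 105 to 145 Mb had 8 windows and a median of 0.42 over 198 genes. Among the windows between them, those from 35 to 50 Mb lay at 0.01, 0.08 and 0.07. In Rec 3 windows of chromosome 6 were called, from 5 to 10 Mb at 0.45, from 65 to 70 Mb at 0.80 and from 130 to 135 Mb at 0.46. The largest of these, from 65 to 70 Mb with 9 genes, held Serbp1, an mRNA-binding protein, at 955 CPM in Rec against 560 in Fh1_fl_fl (log2 0.90, SE 0.053, edgeR adjusted p = 3.08e-14).

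Chromosome 12 was the lowest chromosome in clone1 and was higher than the control in Rec. Clone1 libraries scored -0.5, -0.48, -0.42, -0.47 and -0.45, a difference of -0.47 (0.72-fold), while Rec libraries scored 0.21, 0.15, 0.16, 0.17 and 0.19, a difference of 0.18. Clone19 libraries scored -0.06, -0.07, -0.09, -0.09 and -0.09, a difference of -0.08 that was not called. In clone1, 63.7% of the tested genes of the chromosome were lower and 18.5% higher by edgeR, against 40.5% and 38% of all genes. The 12 windows kept from 50 to 120 Mb formed a run at -0.59 over 310 genes, of which 79.4% were below 0. The windows from 0 to 45 Mb did not share one sign in clone1: they ran from -0.60, at 20 to 25 Mb, to 0.56, at 15 to 20 Mb.

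In Rec the same chromosome divided at nearly the same place. The 9 windows from 0 to 45 Mb formed a run at 0.49 over 112 genes, with 78.6% of genes above 0, and 7 of the windows were past the bound. None of the 12 windows from 50 to 120 Mb was called in Rec, and they lay between -0.09 and 0.39. Rps7, a ribosomal protein of the small subunit (chr12:28630854-28635953), counted 410, 433, 555, 490 and 424 CPM in Fh1_fl_fl and 607, 809, 811, 702 and 674 in Rec. Ywhaq, a 14-3-3 protein, had 566 ± 38.1 CPM in Fh1_fl_fl against 268 ± 22.1 in clone1, 350 ± 48.8 in clone19 and 833 ± 42.2 in Rec.

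Over all distal genes of chromosome 12 the differences were -0.58 in clone1, -0.11 in clone19 and 0.09 in Rec. On the centromere side they were -0.25, -0.03 and 0.37, so the lines kept the same order. The most abundant genes of the distal clone1 run, Hsp90aa1 and Eif5, need not follow these medians, and Hsp90aa1 was above the controls in clone19. Hsp90aa1, the inducible cytosolic HSP90 (chr12:110690605-110702728), counted 746, 768, 714, 765 and 696 CPM in Fh1_fl_fl against 527, 481, 514, 498 and 535 in clone1, 951, 947, 772, 928 and 933 in clone19, and 1440, 1470, 1330, 1430 and 1470 in Rec. Eif5, a translation initiation factor, counted 668, 659, 634, 704 and 639 CPM in Fh1_fl_fl against 480, 483, 492, 479 and 457 in clone1, and 977, 953, 1050, 1050 and 1070 in Rec. All clone1 libraries were below and all Rec libraries above the controls for both genes. The window from 95 to 100 Mb, with 12 genes, was the lowest of the chromosome in clone1, at -0.83, -0.62, -0.66, -0.63 and -0.82. By edgeR 11 of its 12 tested genes were lower, where 40.5% of all genes were. This count is a description only, because the window was chosen by its low median. The window includes Zc3h14, a poly(A) RNA-binding protein, with 220 ± 4.53 CPM in Fh1_fl_fl and 160 ± 6.78 in clone1, and Ttc8, a ciliary BBSome subunit, with 28.8 ± 2.13 and 4.93 ± 1.37.

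Chromosome 9 separated the 2 deletion clones. Clone1 libraries scored -0.27, -0.26, -0.26, -0.22 and -0.19 and clone19 libraries 0.18, 0.21, 0.22, 0.22 and 0.21, so the clones lay on opposite sides of the controls. The direct difference, clone19 against clone1, was 0.45 (1.36-fold). All 25 windows were higher in clone19 than in clone1, 18 of them past the bound, and 84.6% of the chromosome's genes were above 0. By edgeR 73.2% of tested genes were higher and 8.9% lower, against 33.5% and 31.6% of all genes in this comparison. The smallest window difference was 0.01, from 90 to 95 Mb with 11 genes, and it separated a run of 17 windows from 5 to 90 Mb (median 0.43) from a run of 4 windows from 95 to 115 Mb (median 0.55).

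Against Fh1_fl_fl few chromosome 9 windows were called on their own, 6 lower in clone1 and 2 higher in clone19. Rhoa, a GTPase of the actin cytoskeleton (chr9:108306129-108337934), counted 561, 584, 628, 608 and 590 CPM in Fh1_fl_fl against 500, 422, 446, 426 and 462 in clone1, and 680, 756, 610, 706 and 647 in clone19. Clone1 libraries were all below and clone19 libraries, except for replicate 3 at 610, above the highest control of 628. Acat1, the mitochondrial acetoacetyl-CoA thiolase (chr9:53580522-53610382), had the largest fold of the first run: 57.8, 58.9, 63.3, 59.9 and 57.7 CPM in Fh1_fl_fl against 38.2, 39.6, 38, 39.6 and 31.5 in clone19, 0.191, 0, 0, 0.599 and 0 in clone1, and 0.37, 0.663, 0.887, 0.346 and 0.505 in Rec. Clone1 values are at or near the 3-count floor.

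Chromosome 10 was raised in Rec and lowered in both clones. Rec libraries scored 0.29, 0.29, 0.27, 0.28 and 0.29, clone1 libraries -0.12, -0.16, -0.14, -0.19 and -0.16, and clone19 libraries -0.23, -0.27, -0.26, -0.26 and -0.23. The differences from Fh1_fl_fl were 0.29 (1.22-fold), -0.15 and -0.25. All 25 windows were above 0 in Rec, and 6 of them passed the bound. By edgeR 54% of tested chromosome 10 genes were higher in Rec and 20% lower, against 33.4% and 37.4% of all genes. Cct2, a TRiC chaperonin subunit (chr10:117051001-117063814), counted 771, 793, 786, 813 and 782 CPM in Fh1_fl_fl and 1340, 1410, 1320, 1320 and 1340 in Rec, with 689 ± 25.2 in clone1 and 771 ± 43.0 in clone19. Timp3, an inhibitor of matrix metalloproteinases in the same raised stretch, went the other way, with 306 ± 17.5 CPM in Fh1_fl_fl and 35.6 ± 4.34 in Rec.

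**Figure D3:**
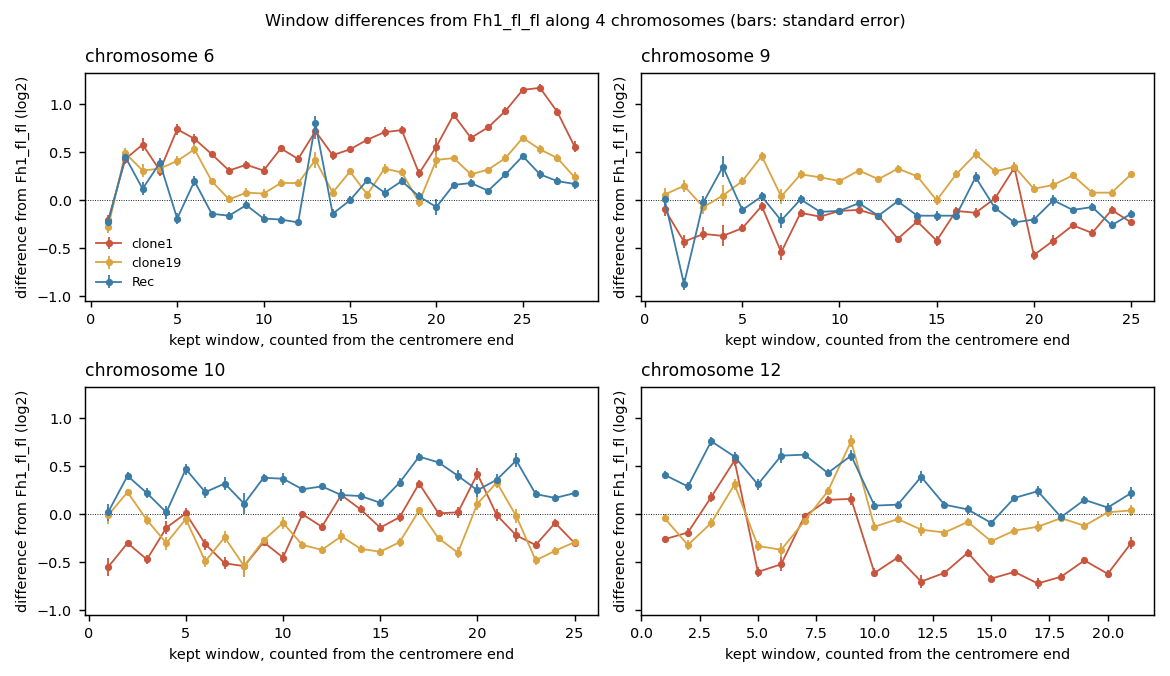
Window differences from Fh1_fl_fl (log2, with the standard error as bars) along chromosomes 6, 9, 10 and 12, by the order of kept windows from the centromere end, for clone1, clone19 and Rec. On chromosome 6 clone1 exceeds 1 in the windows at 1.15 and 1.17, on chromosome 9 clone19 runs above clone1, on chromosome 10 Rec lies above 0 in every window, and on chromosome 12 the clone1 line falls to between -0.72 and -0.30 after the first 9 windows.

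The derived lines were also compared with each other. Against clone1, 64 windows were higher in Rec (14.1%) and 88 lower (19.3%), and against clone19 51 were higher (11.2%) and 61 lower (13.4%). In clone19 against clone1, 52 windows were higher (11.4%) and 49 lower (10.8%). Chromosome 12 was 0.64 higher in Rec than in clone1 (1.56-fold), with all 21 windows above 0 and 19 called, and 72.6% of tested genes higher and 14.5% lower by edgeR, against 39.7% and 38.1% of all genes. Chromosome 10 was 0.53 higher in Rec than in clone19 (1.45-fold), with all 25 windows above 0 and 19 called, and 68.5% of genes higher and 13.9% lower, against 35.8% and 38% of all genes. Chromosome 6 was 0.51 lower in Rec than in clone1 (0.70-fold), with 23 of 28 windows called lower and none higher.

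Counted by chromosome, Rec was higher than clone1 on 7 of 19 (36.8%) and lower on 6 (31.6%), and higher than clone19 on 5 (26.3%) and lower on 6 (31.6%). Clone19 was higher than clone1 on 4 (21.1%) and lower on 6 (31.6%). Rec was above clone1 by 0.14 on chromosome 4, 0.18 on 5, 0.30 on 8, 0.14 on 9, 0.44 on 10, 0.64 on 12 and 0.22 on 19. It differed by -0.19 on chromosome 1, -0.22 on 2, -0.51 on 6, -0.32 on 7, -0.11 on 11 and -0.30 on 18. Rec was above clone19 by 0.20 on chromosome 8, 0.53 on 10, 0.26 on 12, 0.21 on 15 and 0.19 on 19, and differed by -0.14 on 1, -0.14 on 2, -0.19 on 6, -0.16 on 7, -0.31 on 9 and -0.14 on 18. On chromosome 2 the sides differed: from 145 to 185 Mb the 8 windows lay at -0.56 in Rec against clone19, while the centromere side of the chromosome was at 0.04. In clone19 against clone1 the runs on chromosome 2 had opposite signs, -0.35 from 55 to 80 Mb and 0.36 from 165 to 185 Mb. Chromosome 12 was 0.39 higher in clone19 than in clone1, with a run at 0.46 from 40 to 120 Mb, and chromosome 6 was 0.33 lower, with runs at -0.53 from 85 to 105 Mb and -0.45 from 110 to 150 Mb. In this comparison 4 chromosomes, 4, 5, 9 and 12, were higher (0.20, 0.19, 0.45 and 0.39) and 6, 7, 11, 13, 15 and 18 lower (-0.33, -0.16, -0.20, -0.11, -0.17 and -0.16). Neighbouring windows had Pearson's r of 0.61 in clone19 against clone1, 0.46 in Rec against clone1 and 0.44 in Rec against clone19. Spearman's rho was 0.6, 0.56 and 0.51, and chromosomes accounted for 37.1%, 45% and 35.1% of the variance of windows.

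**Figure D4:**
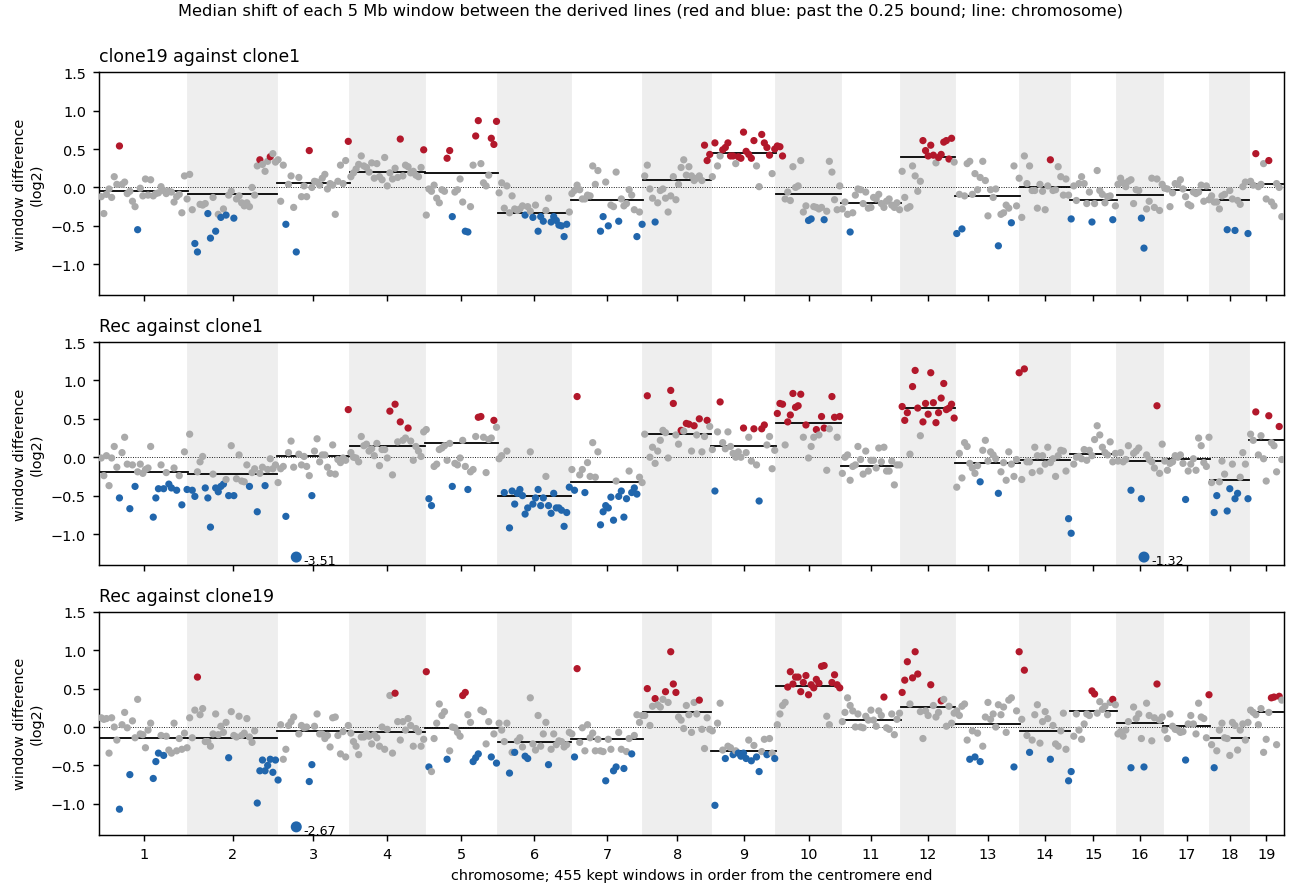
Window differences (log2) between the lines themselves, drawn as for the control comparisons, for clone19 against clone1, Rec against clone1 and Rec against clone19. All chromosome 9 windows lie above 0 in the top panel, and all chromosome 12 windows in the middle and all chromosome 10 windows in the bottom panel do the same; the points at -3.51, -1.32 and -2.67 lie outside the axis.

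Chromosomes 1, 7, 11, 13, 14, 15 and 18 were also raised in clone1. On chromosome 18 clone1 libraries scored 0.24, 0.25, 0.28, 0.28 and 0.32 and clone19 libraries 0.12, 0.15, 0.13, 0.12 and 0.06, for differences of 0.27 and 0.12. On chromosome 7 clone1 libraries scored 0.26, 0.25, 0.22, 0.23 and 0.22, a difference of 0.23, with runs at 0.27 from 20 to 40 Mb, 0.44 from 60 to 90 Mb and 0.41 from 95 to 115 Mb. On chromosome 14 all 3 lines were called, with clone1 at 0.19, 0.2, 0.21, 0.24 and 0.24, clone19 at 0.22, 0.27, 0.22, 0.23 and 0.2, and Rec at 0.17, 0.16, 0.17, 0.19 and 0.2. Chromosome 14 thus differed from the controls by 0.21, 0.23 and 0.18. Before rounding the clone19 libraries lay at 0.202 to 0.269 and the Rec libraries at 0.161 to 0.195, so these groups did not overlap, while the clone1 libraries, at 0.194 to 0.236, overlapped both.

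Chromosome 13 was raised on its distal side. Clone1 libraries scored 0.18, 0.16, 0.18, 0.17 and 0.18 and Rec libraries 0.1, 0.1, 0.11, 0.11 and 0.12, for differences of 0.18 and 0.11. The centromere side was at 0.02 in clone1 and -0.02 in Rec, the distal side at 0.30 and 0.25, and a clone1 run from 70 to 120 Mb had a median of 0.43 over 179 genes. Plk2, a polo-like kinase in that run, had 203 CPM in Fh1_fl_fl and 605 in clone1 (log2 1.72, SE 0.053, edgeR adjusted p = 1.39e-20). On chromosome 15 clone1 libraries scored 0.18, 0.15, 0.13, 0.17 and 0.18 and Rec libraries 0.22, 0.22, 0.18, 0.19 and 0.18, for differences of 0.16 and 0.20. Clone1 was also higher on chromosome 11, at 0.16, 0.19, 0.17, 0.17 and 0.16 (difference 0.17). On chromosome 1 clone1 scored 0.1, 0.15, 0.16, 0.16 and 0.18 (difference 0.15) and clone19 0.11, 0.12, 0.09, 0.1 and 0.1 (difference 0.10). The chromosome 1 value did not appear in housekeeping families, which were at -0.04 in clone1 and 0.01 in clone19.

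Chromosomes 3 and 5 were lowered mostly on their distal side, and chromosome 8 along most of its length. On chromosome 5 clone1 libraries scored -0.28, -0.29, -0.28, -0.26 and -0.29 and Rec libraries -0.11, -0.08, -0.1, -0.11 and -0.11, for differences of -0.28 and -0.10. In clone1 the centromere side was at 0.03 and the distal side at -0.45, with a run of 9 windows from 110 to 155 Mb at -0.56 over 402 genes, 78.6% of them below 0. Rplp0, a stalk protein of the large ribosomal subunit in that run (chr5:115559467-115563727), counted 2180, 2250, 2380, 2170 and 2220 CPM in Fh1_fl_fl against 1440, 1220, 1180, 1180 and 1220 in clone1, and 3350, 3370, 3130, 3690 and 3050 in clone19. The window from 135 to 140 Mb, with 93 genes, was called lower in each line, at -0.70 in clone1, -0.54 in clone19 and -0.47 in Rec.

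On chromosome 3 clone1 libraries scored -0.24, -0.2, -0.22, -0.21 and -0.24, clone19 libraries -0.16, -0.1, -0.17, -0.19 and -0.18, and Rec libraries -0.23, -0.23, -0.2, -0.2 and -0.19. The differences were -0.22, -0.16 and -0.21, and in each line they lay on the distal side, at -0.34, -0.24 and -0.29, against 0.08, 0.08 and 0.00 on the centromere side. Each line had a run beginning at 85 Mb, at -0.38 to 110 Mb in clone1, -0.30 to 105 Mb in clone19 and -0.32 to 125 Mb in Rec. Muc1, an epithelial mucin in these runs (chr3:89229057-89233381), had 67.3 ± 6.72 CPM in Fh1_fl_fl against 0.531 ± 0.224 in clone1, 1.15 ± 0.483 in clone19 and 1.21 ± 0.223 in Rec. On chromosome 8 clone1 libraries scored -0.24, -0.3, -0.33, -0.32 and -0.3 (difference -0.30) and clone19 libraries -0.19, -0.24, -0.21, -0.17 and -0.19 (difference -0.20), with runs at -0.35 from 60 to 95 Mb in clone1 and -0.31 from 25 to 50 Mb in clone19. On chromosome 8, 24 of 26 windows were below 0 in clone1 and 23 of 26 in clone19, and the centromere and distal sides were at -0.13 and -0.37 in clone1 and at -0.28 and -0.15 in clone19. Rec was at 0.00 on this chromosome.

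Lower calls also stood on chromosomes 2, 4 and 19, and on 9 in Rec. Clone1 libraries scored -0.14, -0.19, -0.21, -0.19 and -0.15 on chromosome 4 (difference -0.18) and -0.15, -0.11, -0.15, -0.1 and -0.1 on chromosome 19 (difference -0.12). Rec libraries scored -0.18, -0.2, -0.18, -0.17 and -0.18 on chromosome 2 (difference -0.18) and -0.1, -0.09, -0.11, -0.11 and -0.09 on chromosome 9 (difference -0.10). At the limit of 0.10, the chromosome 9 value in Rec lost its call with TMM scaling, without Rec replicate 3 and without each of the 5 control libraries in turn, with values of -0.10 to -0.09. The calls of chromosome 1 in clone19 and of chromosomes 5 and 13 in Rec lie at the same limit and were lost on leaving out some single libraries. Chromosomes 16 and 17 were called in no line against Fh1_fl_fl, and chromosome 16 still held a clone1 run at 0.41 from 40 to 60 Mb. The runs not yet named were, in clone1, at -0.32 from 5 to 25 Mb and -0.36 from 95 to 115 Mb on chromosome 9 and at -0.37 from 25 to 55 Mb on chromosome 10. In clone19 they were at 0.33 from 145 to 165 Mb on chromosome 2, at -0.39 from 120 to 140 Mb on chromosome 5 and at 0.31 from 75 to 95 Mb on chromosome 9. In Rec they were at -0.32 from 30 to 55 Mb on chromosome 2, at 0.32 from 40 to 65 Mb and 0.39 from 80 to 115 Mb on chromosome 10, and at 0.37 from 85 to 110 Mb on chromosome 13.

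Housekeeping families gave the called chromosomes of the 3 control comparisons the same sign, except chromosome 1 in clone1. They are genes matched by symbol for ribosomal proteins, proteasome, respiratory chain, RNA polymerases, splicing, helicases, chaperonin, translation initiation and trafficking, with 9 to 55 kept genes per chromosome. In clone1 their difference was 0.51 on chromosome 6, -0.42 on 12, -0.41 on 5 and -0.40 on 8, beside 0.59, -0.47, -0.28 and -0.30 over all genes. In Rec it was 0.37 on chromosome 10 and -0.36 on chromosome 3, and in clone19 against clone1 it was 0.61 on chromosome 9. Larger housekeeping than all-gene values stood on chromosomes 9 and 14 in clone19, at 0.41 and 0.45 beside 0.20 and 0.23. Smaller ones included chromosome 10 in clone1 and clone19, at -0.06 and -0.10 beside -0.15 and -0.25. On chromosome 1 in clone19 and chromosome 9 in Rec the sign was the same but the values were near 0, at 0.01 and -0.01 beside 0.10 and -0.10. The housekeeping genes are also among all genes, so the compared values are not independent.

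**Figure D5:**
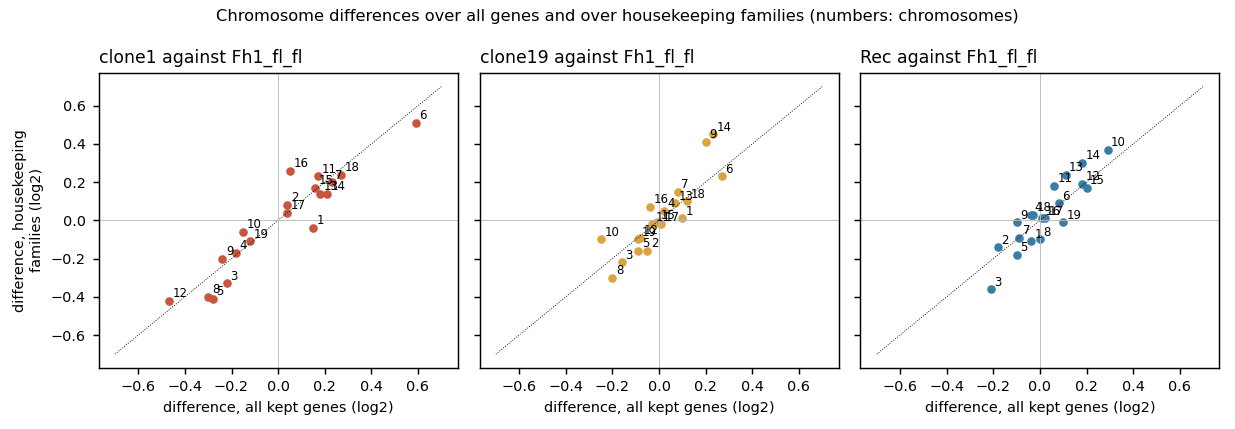
Chromosome differences from Fh1_fl_fl over housekeeping families (vertical axis, log2) against those over all kept genes (horizontal axis, log2), 1 numbered point per chromosome; the dotted line is equality. Chromosome 6 (0.59 and 0.51) and chromosome 12 (-0.47 and -0.42) are at the ends in clone1, and chromosome 10 (0.29 and 0.37) is at the upper end in Rec.

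Several of the windows farthest from 0 held few genes. The largest difference of all was from 45 to 50 Mb on chromosome 3, with 5 genes: clone1 libraries scored 3.68, 3.52, 3.41, 3.61 and 3.62, clone19 libraries 2.75, 2.81, 2.62, 2.84 and 2.63, and Rec libraries 0.09, 0.07, 0.03, 0.05 and 0.05. The differences were 3.60, 2.76 and 0.08. They are given as a description, because 2610316D01Rik, Pcdh10 and Pabpc4l, which are 3 of the 5 genes, had group means of 0 to 0.061 CPM in Fh1_fl_fl and 0 in Rec, and so passed the count filter only through clone libraries. Slc7a11, which imports cystine for glutathione synthesis, counted 10.9, 16.5, 7.54, 6.1 and 9.2 CPM in Fh1_fl_fl against 505, 629, 631, 646 and 773 in clone1, 167, 154, 144, 156 and 163 in clone19, and 134, 85.5, 113, 114 and 127 in Rec. Pcdh10, a protocadherin, was at 0, 0, 0, 0.305 and 0 CPM in Fh1_fl_fl against 5.74, 5.23, 4.78, 5.54 and 7.97 in clone1, 3.84, 3.07, 2.35, 3.66 and 4.54 in clone19, and 0 in all Rec libraries.

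The size of that window's value depends on the handling of low genes. With a pseudocount of 2 CPM in place of 0.5 it was 1.97 in clone1 and 1.48 in clone19, and with 0.1 it was 5.65 and 4.49. The rule's own value, the median log2 ratio of group mean CPM without a pseudocount, was 5.99 in clone1 and 5.84 in clone19, and had no value in Rec, where the median gene was at 0 in all 5 libraries. Slc7a11 is counted here because its annotated span, chr3:49892526-50443614 on the minus strand, begins before 50 Mb, whereas its transcription start lies beyond. Placed by transcription start, it left the window with fewer than 5 kept genes, and the window was not kept.

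The second window of this kind was from 10 to 15 Mb on chromosome 5, with 5 genes that include 3 class 3 semaphorins, secreted guidance proteins. It differed by 1.77 in clone1, 1.71 in clone19 and 1.13 in Rec and was called in each. In Rec 3 of its 5 genes were higher and 1 lower by edgeR, where 33.4% and 37.4% of all genes were. The higher ones were Sema3e and the low genes Speer3 (0.835 CPM in Fh1_fl_fl, 2.59 in Rec) and Gm6650, a pseudogene (0.431 and 1.38 CPM). Sema3d was at 1.32 and 1.01 CPM. The Rec value thus rests partly on genes near the count floor and is given as a description. Sema3e (chr5:14025276-14256689) counted 50.1, 53.9, 39, 35.1 and 43.5 CPM in Fh1_fl_fl against 283, 305, 279, 334 and 399 in clone1, 269, 249, 200, 236 and 262 in clone19, and 127, 81, 104, 117 and 110 in Rec. Sema3a counted 188, 194, 157, 147 and 169 CPM in Fh1_fl_fl against 392, 381, 330, 383 and 413 in clone19 and 135, 101, 118, 124 and 124 in Rec. All Rec libraries were thus above the controls for Sema3e and below them for Sema3a. With a pseudocount of 2 the window was at 1.05 in clone1 and 0.59 in Rec.

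On chromosome 16, the window from 50 to 55 Mb, with 5 genes, was raised in clone1, at 0.87, 1.29, 1.29, 1.41 and 1.3 (difference 1.24, limma treat adjusted p = 3.13e-10). It holds Alcam, an adhesion molecule, with 50.2 ± 4.78 CPM in Fh1_fl_fl against 167 ± 14.9 in clone1, 58.4 ± 5.09 in clone19 and 4.4 ± 1.24 in Rec. The lowest clone1 windows lay at -0.78 from 155 to 160 Mb on chromosome 3, at -0.72 and -0.70 on chromosome 12 (from 95 and from 65 Mb), at -0.70 from 135 Mb on chromosome 5 and at -0.69 from 125 to 130 Mb on chromosome 8. In the last of these, Map3k21, a mixed-lineage kinase, had 153 ± 7.5 CPM in Fh1_fl_fl against 9.38 ± 1.74 in clone1, 52.3 ± 5.39 in clone19 and 62.9 ± 5.52 in Rec. Its neighbour Tsnax, a partner of translin in RNA processing, had 74.7 ± 2.64, 5.05 ± 0.913, 13.4 ± 1.16 and 17.5 ± 1.49 CPM in the same order.

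In clone19 the lowest window was from 15 to 20 Mb on chromosome 2, with 13 genes, at -1.08, -1.15, -0.47, -0.87 and -0.84, a difference of -0.88 that was -0.55 with a pseudocount of 2. Clone1 was at -0.04 there. Bmi1, a Polycomb repressor in this window, was lower in both, with 159 ± 10.4 CPM in Fh1_fl_fl against 62.7 ± 4.0 in clone1 and 59.7 ± 4.41 in clone19, while Nebl, an actin-binding nebulin relative, was higher in both, at 0.569 CPM against 15.5 and 6.69. The window from 10 to 15 Mb on chromosome 7, at -0.61, rests on genes under 5 CPM: without them it was at 0.04, and with a pseudocount of 2 at -0.27 and not called. The windows from 50 Mb on chromosome 17, from 0 Mb on chromosome 5 and from 55 Mb on chromosome 19 followed at -0.59, -0.58 and -0.58. Besides the windows already named, the highest were from 40 to 45 Mb on chromosome 12 (0.76), from 45 to 50 Mb on chromosome 1 (0.71) and from 95 to 100 Mb on chromosome 14 (0.70). The chromosome 12 window includes Ifrd1, a transcriptional co-regulator, with 103 CPM in Fh1_fl_fl and 324 in clone19 (log2 1.78, SE 0.070, edgeR adjusted p = 4.87e-18).

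In Rec the lowest window was from 5 to 10 Mb on chromosome 9, with 14 genes, at -0.97, -0.96, -0.66, -0.95 and -0.83 (difference -0.87, limma treat adjusted p = 1.89e-07). It was at -0.43 in clone1, also called lower, and at 0.15 in clone19. By edgeR 13 of its 14 genes were lower in Rec and 1 higher, where 37.4% and 33.4% of all genes were. The window was chosen by its low median, so this count is a description only. Birc3, an inhibitor of apoptosis, counted 16, 15.7, 20.7, 18.3 and 19.3 CPM in Fh1_fl_fl and 3.33, 2.37, 3.55, 2.31 and 2.47 in Rec. Its neighbour Yap1, the Hippo pathway co-activator, counted 224, 211, 219, 230 and 229 CPM in Fh1_fl_fl and 185, 170, 182, 191 and 188 in Rec. The Rec libraries were below all controls for both.

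The window from 145 to 150 Mb on chromosome 2 followed at -0.73 in Rec, beside -0.02 in clone1 and 0.26 in clone19. Its genes include Thbd, the thrombin receptor thrombomodulin, with 170 ± 18.9 CPM in Fh1_fl_fl against 460 ± 56.3 in clone1, 524 ± 30.8 in clone19 and 126 ± 9.28 in Rec. The window from 130 to 135 Mb on chromosome 5 lay at -0.56 and holds Cldn4, a tight-junction claudin, at 835, 847, 729, 645 and 766 CPM in Fh1_fl_fl and 253, 255, 234, 236 and 257 in Rec. Cldn4 is one of the 10 epithelial markers, whose summed level in Rec overlapped that of the controls. The windows from 175 Mb on chromosome 2 (-0.55) and from 25 Mb on chromosome 3 (-0.54) completed the 5 lowest, and the first of them was at -0.34 and not called with a pseudocount of 2.

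Raised windows of Rec included some far above their chromosome. From 10 to 15 Mb on chromosome 14, with 7 genes, Rec libraries scored 0.85, 1.0, 1.04, 1.11 and 1.09, a difference of 1.03. Psmd6, a subunit of the proteasome's regulatory particle there (chr14:14112174-14120984), counted 91.2, 93.8, 97.1, 102 and 95.4 CPM in Fh1_fl_fl against 57.7, 48.7, 53.1, 53.6 and 52.5 in clone1, and 194, 236, 219, 206 and 200 in Rec. From 50 to 55 Mb on chromosome 8 the difference was 0.86, with Spcs3, a signal peptidase subunit, at 489 ± 17.8 CPM in Fh1_fl_fl and 780 ± 27.8 in Rec. The window from 120 to 125 Mb on chromosome 13, at 0.81 with 5 genes, holds Tcstv3 and AF067061, members of families of close copies, so that its counts are uncertain where reads map to several copies.

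The Fh1 locus itself lay in a window that was below the upper quartile of all windows in each line (0.28 in clone1, 0.20 in clone19 and 0.17 in Rec). The window from 175 to 180 Mb on chromosome 1, with 20 genes, differed by 0.24 in clone1, 0.15 in clone19 and 0.00 in Rec, and it passed the bound in none. Without the bound, limma called it in clone1 (adjusted p = 0.000941) and clone19 (adjusted p = 0.028), among 354 and 302 windows called so. Clone1 libraries scored -0.07, 0.38, 0.33, 0.29 and 0.32 there, and replicate 1 stood below the others. In clone1 11 of its 20 genes were higher and 7 lower by edgeR, where 38% and 40.5% of all genes were. In Rec 6 were higher and 6 lower, near the 33.4% and 37.4% of all genes.

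Growth-control genes were read beside their windows, from a list chosen with earlier results of these data known. Those described here that lay in a window called in clone1 were Vhl, an E3 ligase subunit for hypoxia factors (chromosome 6, 110 to 115 Mb, window 0.89), Myc (chromosome 15, 60 to 65 Mb, 0.43) and Ccnd1, cyclin D1 (chromosome 7, 140 to 145 Mb, 0.42). Vhl had 35.0 ± 2.5 CPM in Fh1_fl_fl against 55.2 ± 1.94 in clone1, 41.0 ± 3.11 in clone19 and 29.7 ± 1.61 in Rec, and its window was also called in clone19, at 0.44. Ccnd1 had 490 ± 38.4 CPM in Fh1_fl_fl against 1280 ± 45.4 in clone1, 996 ± 74.1 in clone19 and 1250 ± 65.1 in Rec, although its window lay at -0.06 in clone19 and 0.09 in Rec. Myc was 128 ± 8.47 CPM in Fh1_fl_fl against 121 ± 7.91 in clone1 and 181 ± 7.19 in Rec, where its 6-gene window was at 0.66 and called. Mdm2, the ligase of p53, lay in a window called lower in clone19 (-0.48) with 87.4 ± 2.87 CPM in Fh1_fl_fl and 85.4 ± 4.97 in clone19. Rb1 moved without its window: it had 19.2 ± 2.28 CPM in Fh1_fl_fl against 98.1 ± 11.3 in clone1, 57.0 ± 7.41 in clone19 and 17.2 ± 2.7 in Rec, and the window from 70 to 75 Mb on chromosome 14 was at 0.14, 0.10 and 0.12.

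Tandem gene clusters were read beside the windows around them, with counts set against the shares of all tested genes: 38% higher and 40.5% lower in clone1, 36.8% and 36.1% in clone19, and 33.4% and 37.4% in Rec. Hoxa genes, transcription factors of body-axis position, lie from 50 to 55 Mb on chromosome 6 in a window called higher in clone1 (0.54), but by edgeR 2 of the 12 kept Hoxa genes were higher and 6 lower in clone1, 5 higher and 6 lower in clone19, and 1 higher and 9 lower in Rec. The clone1 count of lower Hoxa genes is near the share of all genes. For Hoxb, in a window at 0.19 in clone1, 0 of 11 kept genes were higher and 10 lower in clone1, and for Hoxd, in a window at 0.08, 7 of 7 were lower in each line. S100a genes, small calcium-binding proteins, mostly went with their window in the clones but not in Rec. From 90 to 95 Mb on chromosome 3 it was called lower in clone1 (-0.51) and clone19 (-0.43), and of 10 kept S100a genes 6 and 8 were lower and 1 and 1 higher. In Rec the window was at -0.26 and not called, with 4 of these genes higher and 3 lower, near the shares of all genes. The window at 20 to 25 Mb of chromosome 13 with the Hist1 histone cluster was called higher in clone19 (0.43). Of its 4 kept Hist1 genes 2 were higher and 0 lower in clone19, from which nothing is read. The window with the Cxcl chemokines on chromosome 5 (90 to 95 Mb) was called lower in clone19 (-0.36), with 1 of 5 kept Cxcl genes higher and 2 lower, the lower count being near the share of all genes. For the Mmp cluster on chromosome 9, from 5 to 10 Mb, both kept genes were lower in Rec. How strand was used in counting is not given in the sources used here, so antisense reads within the Hox clusters cannot be told apart. For the keratin, Hoxc, Serpinb, Gsta, Ugt2b, Pcdh, Ifit and Ly6 clusters, the window read was not called in clone1, clone19 or Rec. The kept type I keratin and Ly6 genes each lie in 2 windows, of which a single window was read.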

How the data were processed

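The data are RNA-seq read counts per Ensembl gene for 20 libraries, which the authors deposited as raw counts with no normalization. Per the submitters' processing notes, TopHat2 2.0.4, HTSeq 0.5.3p9 and DESeq 1.10.1 were used with build GRCm38. What each tool did, which annotation was counted and how strand was handled is not given in the sources used here. Lines that name no gene were left out: reads aligned to several places made up 28.83 to 40.29% of a library, reads in no feature 3.28 to 6.73% and ambiguous reads 0.46 to 0.65%. Multi-copy genes lose reads by this.

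Gene positions and symbols come from GENCODE M21, matched by Ensembl ID. Window and chromosome scores are medians of log2(CPM + 0.5) less the Fh1_fl_fl mean, centred on the median kept autosomal gene. Windows were tested with limma 3.58.1 (treat, bound 0.25), genes with edgeR 4.0.16 (quasi-likelihood, TMM, all 4 groups in one fit, 12671 genes tested) and chromosomes with an exact permutation test, all with Benjamini-Hochberg adjustment at 0.05, in R 4.3.3. edgeR folds are on the TMM scale and CPM on library totals, so the folds of the 3 derived lines lie above the ratio of CPM. Of the 12195 kept autosomal genes 1262 had under 10 counts in every library of some group. The GC content is that of annotated transcripts, and each chromosome was split at the middle of its annotated extent for the centromere and distal sides. The scripts were tested on simulated data.

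The text names every called chromosome, the 5 highest and 5 lowest called windows of each control comparison, the Fh1 window (28 windows in all), the runs of the control comparisons, and in these the most abundant and most changed genes (up to 2 of each, fewer where windows are many), beside landmark genes and clusters from a list, of which not all are reported here; other genes and the promoters were chosen after their values were seen. The windows, gene lists and clusters were chosen with earlier results of these data known. Alternatives tried were other scalings, centring, pseudocounts, filters, window sizes and starts, bounds, DESeq2 1.42.0, a replicate block and leaving out each library.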

Additional observations from a re-analysis of the deposited data

Results flagged for a closer look

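On 10 chromosomes clone19 and clone1 differed by at least 0.10 and passed the exact permutation test (two-sided, 5 against 5 libraries, p = 0.00794, the smallest possible). Clone19 was higher by 0.2 on chromosome 4, 0.19 on 5, 0.45 on 9 and 0.39 on 12. Relative to clone1 it was at -0.33 on chromosome 6, -0.16 on 7, -0.2 on 11, -0.11 on 13, -0.17 on 15 and -0.16 on 18. Chromosomes 2, 3, 8, 10 and 16 had the same p but differences under 0.10 in size before rounding (-0.08, 0.06, 0.1, -0.09 and -0.1). Chromosome 1, at -0.05, also passed the same test (adjusted p = 0.0369) below the size limit.

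The X chromosome lies outside the autosomal windows and shifted as well, with 418 kept genes. It was at -0.17 in clone1, 0.24 in clone19 and -0.23 in Rec against Fh1_fl_fl, and clone19 was 0.41 above clone1.

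Single libraries stood apart from the other 4 of their group in 6 of the 68 groups examined, where chance gives about 1 in 20. Clone1 replicate 1 scored 0.1 on chromosome 1, against 0.15 to 0.18 in the others. Rec replicate 2 scored -0.2 on chromosome 2, against -0.18 to -0.17. On chromosome 7, clone19 replicate 2 scored 0.0 against 0.08 to 0.1, and Fh1_fl_fl replicate 4 scored -0.02 against 0 to 0.01. The same control library scored -0.03 on chromosome 8, against 0 to 0.01. Clone19 replicate 1 scored 0.18 on chromosome 9, against 0.21 to 0.22.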

How the results depend on the processing

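Named windows and chromosomes mostly kept their direction and call. Of alternative values of named windows 677 did so, 6 lost the call and 1 turned, and of chromosome values 1081 did so, 119 lost the call and 6 turned. Many of these values come from leaving out 1 library, and so share most of their libraries with the main result. The lost chromosome calls include all those under the replicate block, where the exact paired test cannot go below 0.0625. These numbers are therefore a description and do not measure robustness. An alternative under which a window was no longer kept is not in this tally. With genes of 5 CPM or more this held for the windows from 45 Mb on chromosome 3, 10 Mb on 5, 50 Mb on 16, 45 Mb on 1 and 120 Mb on 13. The share of windows called depends on the bound. With 0.15 it was 50.1% in clone1, 31.2% in clone19, 25.1% in Rec, 42.4% in clone19 against clone1 and 41.1% in Rec against clone19. With 0.4 it was 14.3%, 3.7%, 3.1%, 7.5%, 18.7% (Rec against clone1) and 9%. On library totals with no centring, 13 chromosomes were called in clone19, and the values turned on chromosome 1 in clone1 (-0.02) and clone19 (-0.03), 18 in clone19 (-0.02) and 13 in Rec (-0.04). In housekeeping families chromosome 1 in clone1 was at -0.04 and chromosome 2 in Rec against clone19 at 0.01. With genes of 5 CPM or more the window from 10 to 15 Mb on chromosome 7 was at 0.04 in clone19. Run counts rose with a limit of 0.15 to 20 in clone1, 14 in clone19 and 11 in Rec, and with 3 windows to 13 in clone19.

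Leaving out 1 library at a time gave 28 to 30.2% of windows in clone1, 11.5 to 13.9% in clone19, 10.8 to 11.9% in Rec, 20 to 24.4% in clone19 against clone1, 31.9 to 33.9% in Rec against clone1 and 22.4 to 24.4% in Rec against clone19. Called chromosomes were then 16, 7 to 9, 7 to 9, 10 to 12, 13 and 11. Gene counts by edgeR were 9778 to 9958, 9017 to 9224, 8642 to 8821, 7949 to 8312, 9708 to 9879 and 9143 to 9355.

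The labels give same-numbered libraries only a number in common, and whether they shared a culture or batch is not known. Over 455 windows the deviations of same-numbered libraries had a mean r of 0 (-0.35 to 0.24). Of 30 pairs 4 were over 0.1, and 2 of 20 libraries correlated best with their own number. With the replicate block, 29.2%, 13%, 11.2%, 22.2%, 32.5% and 24.4% of windows were called, and 0 chromosomes in all 6 comparisons, since the exact paired test cannot go below 0.0625. Depth limits low genes most, and windows of 5 to 7 genes rest on few of them.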
